A study of Homo sapiens with 18 samples.

Results

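HL-60 was compared with 2 other established acute myeloid leukaemia cell lines, SKM1 and MOLM13, in cells that carried a control hairpin. The members were the 3 HL-60 arrays labelled shNT, set against the mean of the 3 SKM1 shNT and the 3 MOLM13 shNT arrays with both lines weighted equally, which is 9 of the 18 arrays in the series. HL-60 cells were grown with 10% fetal calf serum, and SKM1 and MOLM13 cells with 20%. All cells carried the non-targeting hairpin shNT, delivered by lentivirus, and were sorted at 48 h; each array took 200 ng of RNA. The other 9 arrays held the same lines, serum and sort time with a hairpin against BCAT1 (shBCAT1), and served as separate arrays in which each line difference could be read again. Serum and line cannot be told apart in any comparison here. Each line is a single culture model derived from 1 leukaemia, and the labels do not say that replicates were separate cultures, so p-values measure a spread between arrays that may be partly technical.

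HL-60 is a myeloblast and promyelocyte-like line that can be driven towards granulocytes or monocytes, and it is widely used to study granule protein genes. It is known to lack p53 and to carry amplified copies of a stretch of chromosome 8 that holds MYC. SKM1 and MOLM13 are leukaemia lines with monocytic features. In normal marrow, azurophil granule proteins are made at the promyelocyte stage, later granule proteins and S100 proteins at the following stages, and IRF8, CSF1R and antigen presentation genes are features of the monocyte and dendritic cell branches.

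Values are linear probe intensities from a 1-colour Illumina BeadChip, with 1 probe per gene and no detection call. Array medians lay between 91.0 and 93.1, and the median of all probe values was 92.1, so a value near this level cannot be told from background and fold changes against it are understated. A difference is the HL-60 mean of log2 intensity minus the average of the SKM1 and MOLM13 means, so a positive value is higher in HL-60. A gene was called at a limma adjusted p under 0.05, and was outside both other lines where, in addition, all 3 HL-60 arrays lay above or below all 6 others. Arrays of 1 line correlated at 0.989 to 0.997 across genes, and arrays of different lines at 0.897 to 0.912. The hairpin's target, BCAT1, had intensities of 137, 164 and 135 in the HL-60 shBCAT1 arrays, against 1473, 1476 and 1456 in the HL-60 shNT arrays. Its shBCAT1 means were 127 in SKM1 and 157 in MOLM13, against shNT means of 1221 and 1071.

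Of 14412 genes tested, 7276 (50.5%) were called, 3789 (26.3%) higher and 3487 (24.2%) lower in HL-60. HL-60 lay above all 6 other arrays for 2320 called genes (16.1%) and below them for 1816 (12.6%), together 4136 (28.7%). The counts of gene lists below are to be read beside these shares of all tested genes. They were 26.3% called higher and 24.2% called lower, with 16.1% above and 12.6% below both lines. Against SKM1 alone 7311 genes (50.7%) were called and against MOLM13 alone 6674 (46.3%), 2 comparisons that share the HL-60 arrays. At 2-fold or more, 372 genes (2.58%) were above and 628 (4.36%) below both lines. At 4-fold or more these were 53 and 176 genes, and at 16-fold or more 5 and 22 genes. The median difference of all tested genes was 0.03. For 168 of the 628 lower genes the HL-60 mean was at or below the median probe value.

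The 15 genes with the largest higher values included an eosinophil and basophil protein, germline genes of the X chromosome, a MYC neighbour and a D cyclin. CLC encodes the Charcot-Leyden crystal protein of eosinophils and basophils, and its intensities were 8485, 5281 and 6279.8 in HL-60, against 128, 144 and 137 in SKM1 and 98.5, 98.9 and 96.9 in MOLM13. All HL-60 arrays were far above the others, which were near background, and the difference was 5.83 ± 0.11 (SE; adjusted p = 7.66e-15), or 56.7-fold. BEX1, a brain-expressed gene on the X chromosome, read 10179.8, 11826 and 11852 in HL-60, against 82.1, 83.8 and 83.7 in SKM1 and 1338, 1057 and 1037 in MOLM13. SKM1 was at background and MOLM13 lay between the lines, with a difference of 5.19 ± 0.09 (SE; adjusted p = 2.18e-15).

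Several X-linked or germline genes were bright in HL-60 and near background in both other lines. MAGED1, a melanoma antigen family member, had 2107, 2358 and 2435 in HL-60, against 75.4, 77.2 and 84.8 in SKM1 and 88.5, 75.5 and 82.1 in MOLM13, a difference of 4.83 ± 0.08 (SE; adjusted p = 1.59e-15). MAGEB2, a testis-restricted family member, had 1386, 1363 and 1254 in HL-60, against 81.2, 80.5 and 97 in SKM1 and 95.9, 102 and 98.4 in MOLM13 (3.85 ± 0.08 (SE; adjusted p = 9.75e-15)). RHOXF2, a homeobox gene of the reproductive tract, had 1122, 1171 and 1385 in HL-60, against 69, 81.1 and 87.2 in SKM1 and 76.8, 87.6 and 93.9 in MOLM13 (3.89 ± 0.10 (SE; adjusted p = 1.05e-13)). Its probe may also read the near-identical copy RHOXF2B, a second MAGED1 probe gave 3.03, and the probes of MAGED1 and MAGEB2 that were near background in every line lay between 0.01 and 0.18. GTSF1, a partner of the piRNA pathway in germ cells of mice, averaged 2484 ± 249.5 in HL-60, against 88.2 ± 5.16 in SKM1 and 96.2 ± 4.65 in MOLM13 (4.75 ± 0.08 (SE; adjusted p = 1.63e-15)). Of the 14 tested genes in a list of cancer-testis and germline genes, 4 were called higher and 2 lower, with a median difference of 0.11. The list as a whole therefore did not share the size of its members MAGED1 and MAGEB2. Of these 2, only MAGEB2 is testis-restricted.

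The remaining large rises were spread over regulators and surface proteins. IFITM1, an interferon-induced membrane protein that restricts virus entry, had 2754, 2702 and 2635 in HL-60, against 108, 109.6 and 108 in SKM1 and 164, 153 and 153 in MOLM13 (4.37 ± 0.06 (SE; adjusted p = 4.56e-16)). IFITM2, named after its values were seen, averaged 5861 in HL-60, against 3389.7 in SKM1 and 2779 in MOLM13 (0.93 ± 0.09 (SE; adjusted p = 3.26e-07)), and IFITM3, named likewise, averaged 105 in HL-60, against 121 in SKM1 and 243 in MOLM13 (-0.71 ± 0.08 (SE; adjusted p = 3.23e-06)). The 3 neighbouring family members therefore had differences of unlike size and sign. Among 35 tested type I interferon response genes, 13 (37.1%) were called higher and 11 (31.4%) lower, against 26.3% and 24.2% of all tested genes. Their median was -0.02, and 7 were called lower when HL-60 replicate 2 was left out. MX1, a marker of the response, was lower at -1.09. HERC5, another member, averaged 1295 in HL-60, against 1226 in SKM1 and 108 in MOLM13, close to SKM1 and far above MOLM13.

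Other genes among the 15 largest rises were PITX1, a hindlimb homeobox factor (1088 ± 47.9 in HL-60, against 82.5 ± 3.24 in SKM1 and 82.1 ± 8.68 in MOLM13; difference 3.73), DNAJC12, a cochaperone of aromatic amino acid hydroxylases (3.72), LRRC26, a potassium channel subunit (3.22), and PTPRCAP, a partner of the phosphatase CD45 (3.57). HCST, the DAP10 signalling adaptor, had 6192, 5758 and 5439 in HL-60, against 158, 142 and 141 in SKM1 and 1656, 1685 and 1602 in MOLM13. HL-60 was above both lines, with SKM1 near background and MOLM13 between them, and the difference was 3.56 ± 0.07 (SE; adjusted p = 9.75e-15). The plot of the 30 largest differences shows the same order for TRIB1, CCND2 and ATF5.

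**Figure D1:**
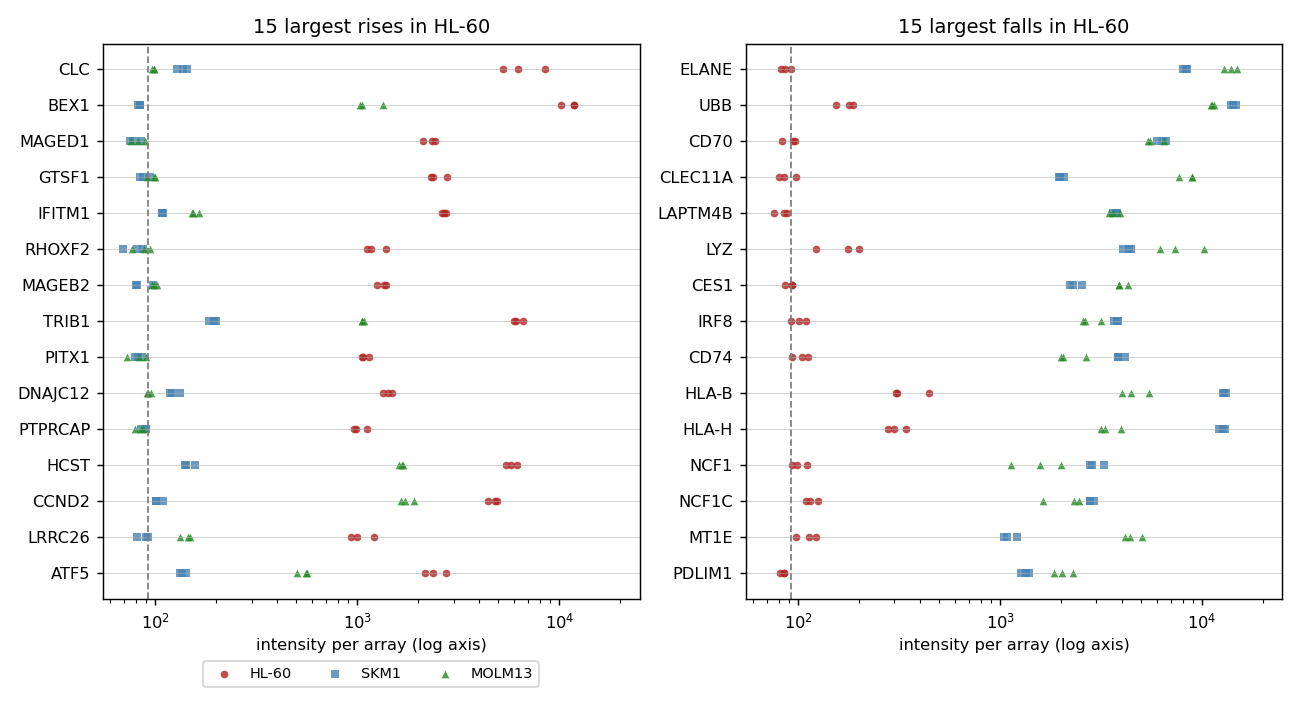
Intensity per array (log axis) of the 15 genes with the largest positive (left) and the 15 with the largest negative (right) difference of HL-60 from the mean of SKM1 and MOLM13. Each point is 1 of 3 shNT arrays per line, and the dashed line is the median of all probe values, 92.1. HL-60 arrays lie above or below all 6 others for every gene shown, since that was part of the choice.

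Granule protein genes were split in HL-60. Those of the serine protease cluster on chromosome 19 were low, while myeloperoxidase and cathepsin G were high. ELANE, neutrophil elastase, had the largest difference of all: 92.6, 85.7 and 82.1 in HL-60, against 8293, 8463 and 8058 in SKM1 and 12909.9, 13971 and 14808 in MOLM13. The HL-60 arrays were at background in contrast to both others, and the difference was -6.95 ± 0.07 (SE; adjusted p = 2.00e-17), or 124-fold lower in HL-60 against a background level, which understates it. AZU1, azurocidin, had 851, 708 and 955 in HL-60, against 4109.6, 4199.9 and 4044 in SKM1 and 11181, 13740.4 and 11687 in MOLM13 (-3.09 ± 0.09 (SE; adjusted p = 1.04e-12)). PRTN3, proteinase 3, had 1740.2, 2004 and 2353 in HL-60, against 8433, 8463 and 8474 in SKM1 and 11126, 11295 and 11304 in MOLM13 (-2.27 ± 0.08 (SE; adjusted p = 9.41e-12)). For both genes HL-60 was above background and below every other array, and MOLM13 was the brightest line. CFD, complement factor D, which lies beside them, averaged 765 ± 17.2 in HL-60, against 3179 ± 210.3 in SKM1 and 11319 ± 349 in MOLM13 (-2.97 ± 0.07 (SE; adjusted p = 4.12e-14)).

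Since AZU1 and PRTN3 are neighbours that were low together, their promoters are shown from the RefSeq table on GRCh38.p14, as the 200 bases upstream of the gene start. AZU1 is at chr19:827637-827836 and PRTN3 at chr19:840799-840998, both on the plus strand. Capitals mark 2 motifs, TATAA and the CCAAT box, each on either strand, so that a match on the opposite strand stands as its reverse complement; the motifs do not overlap. The TATAA motif occurs once in each promoter, and the CCAAT box in PRTN3 at 2 places and not in AZU1. Of 35116 RefSeq promoters, 15.4% hold the first motif and 28% the CCAAT box in the same window on either strand. A match is a description of the letters and not a binding site.
AZU1: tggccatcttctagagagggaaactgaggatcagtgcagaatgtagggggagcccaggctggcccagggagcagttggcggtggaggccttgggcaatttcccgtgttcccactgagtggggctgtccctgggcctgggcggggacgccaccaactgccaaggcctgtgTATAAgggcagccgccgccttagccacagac
PRTN3: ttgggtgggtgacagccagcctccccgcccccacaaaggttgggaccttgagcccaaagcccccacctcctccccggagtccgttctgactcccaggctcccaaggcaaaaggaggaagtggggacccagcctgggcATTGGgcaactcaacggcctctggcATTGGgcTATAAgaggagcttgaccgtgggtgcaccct

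MPO, the peroxidase of the azurophil granule, had 14254, 14200.2 and 14426 in HL-60, against 11329, 11322 and 12417 in SKM1 and 579, 754 and 719.5 in MOLM13. HL-60 and SKM1 were both bright and MOLM13 was low, so the difference of 2.34 ± 0.08 (SE; adjusted p = 6.79e-12) came mainly from MOLM13: it was 0.29 from SKM1 and 4.39 from MOLM13. CTSG, cathepsin G, had 4649.8, 6052 and 5802 in HL-60, against 164, 147 and 154 in SKM1 and 7698, 7138 and 7496 in MOLM13. Here SKM1 was near background and HL-60 differed from MOLM13 by -0.45 (adjusted p = 0.00147). PRG2, the eosinophil major basic protein, averaged 13712 ± 342 in HL-60, against 1171 ± 41.6 in SKM1 and 13486 ± 514 in MOLM13. It was as bright in MOLM13, with a difference of 0.02 from MOLM13 (adjusted p = 0.819) and 3.55 from SKM1. EPX and IL5RA, eosinophil peroxidase and the interleukin-5 receptor, averaged 100.4 in HL-60, against 90.0 in SKM1 and 129 in MOLM13 for EPX and 135 in HL-60, against 124 in SKM1 and 133 in MOLM13 for IL5RA, at or near background in all lines.

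Of 15 tested azurophil granule genes, 5 were called higher and 10 lower, and 2 and 8 were outside both lines, with a median of -1.17 that was -0.58 when dim genes were kept. LYZ, lysozyme, had 200.4, 176 and 122 in HL-60, against 4432, 4324 and 4056 in SKM1 and 10261, 7369 and 6163 in MOLM13 (-5.14 ± 0.15 (SE; adjusted p = 8.23e-13)), with a second, dim probe at -1.63. BPI, the bactericidal permeability-increasing protein, had 264, 118 and 133 in HL-60, against 1531, 1588 and 1517 in SKM1 and 1112, 889.8 and 879 in MOLM13 (-2.92 ± 0.18 (SE; adjusted p = 4.31e-09)). The first HL-60 array was the brightest of its line for both genes, and all 3 stayed below both other lines. Of 15 tested genes for later granules and S100 proteins, none was called higher, 12 were called lower and 8 were below both lines. The median of -0.57 was -2.08 under a stricter filter on dim genes and -0.27 with none, and 1 member was called higher when MOLM13 replicate 1 was left out. S100A9 averaged 86.6 ± 3.02 in HL-60, against 11812 ± 566 in SKM1 and 232 ± 59.8 in MOLM13, and its partner S100A8 78.9 ± 5.11 in HL-60, against 4839 ± 116 in SKM1 and 297 ± 78.2 in MOLM13. Both are calcium-binding proteins of neutrophils and monocytes, and SKM1 was by far the brightest line, so their differences of -4.24 and -3.91 came mainly from SKM1. MMP9, gelatinase B, showed the same layout, with 82.1 in HL-60, against 1985 in SKM1 and 120.4 in MOLM13.

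The C/EBP factors, which control granule genes, moved in opposite directions. CEBPE, needed for late granulocyte steps in mice, had 3968, 3295 and 3475 in HL-60, against 1229, 1005 and 1115 in SKM1 and 185, 154 and 159.9 in MOLM13 (3.05 ± 0.09 (SE; adjusted p = 6.33e-13)), above both lines. CEBPA averaged 1777 ± 343 in HL-60, against 4082 ± 408 in SKM1 and 7063 ± 1045 in MOLM13 (-1.60 ± 0.11 (SE; adjusted p = 1.74e-08)) and CEBPD 592 ± 28.9 in HL-60, against 2044 ± 98.6 in SKM1 and 4148 ± 91.6 in MOLM13 (-2.30 ± 0.07 (SE; adjusted p = 5.98e-13)), both below them. In a list of 24 tested myeloid transcription factors, 3 were called higher and 13 lower. ID1, an inhibitor of helix-loop-helix factors, was lower at -1.60. MYB differed by 0.50 and SPI1, which encodes PU.1, by -0.43 (adjusted p = 0.00158), with 0.28 (adjusted p = 0.00783) in the shBCAT1 arrays. A second SPI1 probe that was also well above background gave -1.25 in the shNT arrays and -0.62 in the shBCAT1 arrays, so the sign under shBCAT1 depended on the probe.

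Monocyte genes were mostly lower in HL-60. IRF8, a factor of the monocyte and dendritic branches, had 92.7, 102 and 109 in HL-60, against 3827, 3802 and 3648 in SKM1 and 3161, 2622 and 2559.7 in MOLM13, a difference of -5.00 ± 0.08 (SE; adjusted p = 1.63e-15). CSF1R, the macrophage colony-stimulating factor receptor, had 91, 97.8 and 90.1 in HL-60, against 881, 994 and 966 in SKM1 and 1179, 1207 and 1303 in MOLM13 (-3.54 ± 0.07 (SE; adjusted p = 9.75e-15)). HL-60 was at background for both. Of 24 tested monocyte and macrophage genes, 2 were called higher, 19 lower, and 12 were below both lines, with a median of -1.07 that was -1.72 under a stricter filter on dim genes. CCR2, a chemokine receptor of monocytes, was among them at -1.82. CD68, a macrophage lysosomal glycoprotein, averaged 161 in HL-60, against 159 in SKM1 and 2429 in MOLM13, so HL-60 did not lie apart from SKM1 (0.02). CD14, the lipopolysaccharide co-receptor, was near background in all 3 lines and was not called (adjusted p = 0.163).

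Receptors and adhesion genes followed the same direction. Of 32 tested growth factor and cytokine receptors, 5 were called higher and 17 lower. CSF3R, the granulocyte colony-stimulating factor receptor, averaged 319 ± 21.1 in HL-60, against 662 ± 39.5 in SKM1 and 2963 ± 342 in MOLM13 (-2.13 ± 0.08 (SE; adjusted p = 1.62e-11)), and TNFRSF1B, a TNF receptor, 142 ± 30.0 in HL-60, against 946 ± 54.4 in SKM1 and 1139 ± 129 in MOLM13 (-2.88 ± 0.11 (SE; adjusted p = 1.89e-11)). Of 25 tested integrin and adhesion genes, 4 were called higher and 14 lower, 12 of them below both lines. ITGAL, the alpha chain of LFA-1, had 117, 94.7 and 96.3 in HL-60, against 1252, 1178 and 1220.4 in SKM1 and 2437, 2592 and 2677 in MOLM13 (-4.11 ± 0.08 (SE; adjusted p = 7.11e-15)), and its beta chain ITGB2 averaged 4520.0 in HL-60, against 10096 in SKM1 and 9708 in MOLM13, a smaller difference of -1.14. ITGAM, the alpha chain of Mac-1, averaged 98.5 in HL-60, against 346 in SKM1 and 303 in MOLM13, and PECAM1 92.6 in HL-60, against 258 in SKM1 and 1311 in MOLM13. The alpha chains were at or near background in HL-60 while ITGB2 was well above it.

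Among 20 tested Fc receptor and ITAM signalling genes, 3 were called higher and 13 lower. LYN, a Src family kinase, differed by -2.26, the adaptor LAT2 by -1.66, and the receptor CD300LF by -2.08. Of the 2 ITAM adaptors, FCER1G averaged 219.6 in HL-60, against 2758 in SKM1 and 375 in MOLM13, and TYROBP 392 in HL-60, against 312 in SKM1 and 5444 in MOLM13. The bright line was SKM1 for FCER1G and MOLM13 for TYROBP, and HL-60 did not lie below SKM1 for TYROBP (0.31, adjusted p = 0.121). NCF1, the p47 subunit of the NADPH oxidase, had 111, 99 and 92.9 in HL-60, against 2778, 3287 and 2845 in SKM1 and 1993, 1571 and 1130.4 in MOLM13 (-4.40 ± 0.13 (SE; adjusted p = 1.07e-12)). The probe for the copy NCF1C gave -4.39, and these probes may read each other's transcripts.

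Antigen presentation genes were mostly lower in HL-60 for both classes. CD74, the invariant chain that guides class II molecules, had 111, 93.7 and 105 in HL-60, against 4169, 3834 and 3844 in SKM1 and 2655, 2054 and 1992 in MOLM13 (-4.84 ± 0.09 (SE; adjusted p = 7.66e-15)), HL-60 at background. HLA-DRA averaged 311 ± 45.9 in HL-60, against 1011 ± 91.5 in SKM1 and 857 ± 113 in MOLM13 (-1.59 ± 0.10 (SE; adjusted p = 4.74e-09)), and CTSH, a cathepsin, 95.1 ± 4.77 in HL-60, against 399.8 ± 13.4 in SKM1 and 788 ± 41.9 in MOLM13 (-2.56 ± 0.07 (SE; adjusted p = 2.45e-13)). Of 15 tested class II genes, 1 was called higher and 11 lower, with a median of -0.51. In class I, HLA-B had 444, 305 and 307 in HL-60, against 12838, 13187 and 12690.2 in SKM1 and 5432, 4443 and 4018 in MOLM13 (-4.47 ± 0.12 (SE; adjusted p = 2.35e-13)). HLA-F averaged 116 ± 6.78 in HL-60, against 5182 ± 375 in SKM1 and 968 ± 35.9 in MOLM13 (-4.27 ± 0.07 (SE; adjusted p = 2.12e-15)), and the HLA-H pseudogene probe differed by -4.43. These sequences are alike, so a probe may read more than 1 of them. B2M, the shared light chain, averaged 5368 ± 149.8 in HL-60, against 13499 ± 1112 in SKM1 and 7054 ± 1277 in MOLM13, a difference of -0.85 ± 0.10 (SE; adjusted p = 2.27e-06), smaller than those of the heavy chain probes. Of 16 tested class I presentation genes, 2 were called higher and 11 lower, 8 below both lines, with a median of -0.85. The class I median was -1.37 against SKM1 and -0.28 against MOLM13, so it came mainly from SKM1. The class II median was -0.54 against SKM1 and -0.23 against MOLM13.

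CD74 and HLA-B carried the largest differences of the class II and class I lists, and both promoters hold CCAAT, once in CD74 and 3 times in HLA-B, with TATAA in neither. CD74 is at chr5:150412911-150413110 and HLA-B at chr6:31357180-31357379, both on the minus strand, with capitals as above.
CD74: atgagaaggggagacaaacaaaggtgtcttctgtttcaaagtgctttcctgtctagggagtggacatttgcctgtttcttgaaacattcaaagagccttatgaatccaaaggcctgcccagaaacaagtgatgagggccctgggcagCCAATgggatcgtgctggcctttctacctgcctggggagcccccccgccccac
HLA-B: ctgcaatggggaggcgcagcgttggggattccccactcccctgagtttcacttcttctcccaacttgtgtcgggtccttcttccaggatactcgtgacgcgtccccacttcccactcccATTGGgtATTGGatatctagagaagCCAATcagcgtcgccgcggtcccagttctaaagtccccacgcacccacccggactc

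**Figure D2:**
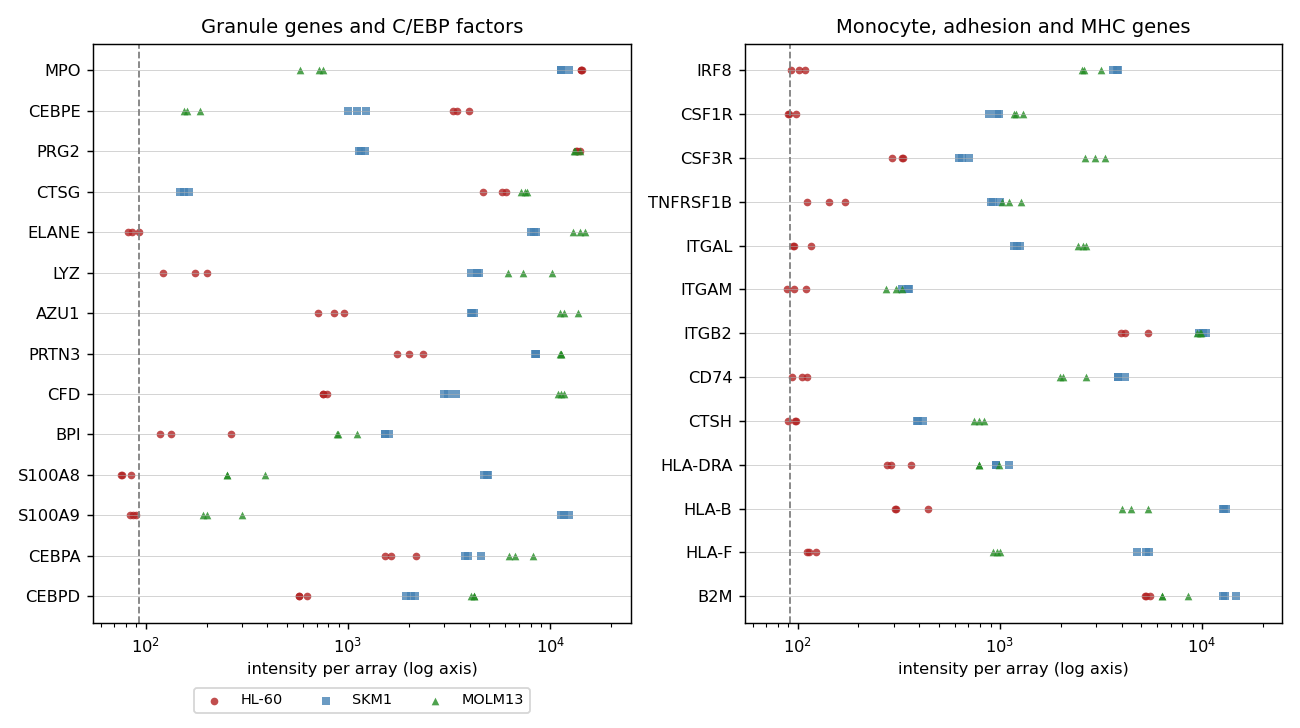
Intensity per array (log axis) of granule genes and C/EBP factors (left) and of monocyte, adhesion and antigen presentation genes (right), with 3 shNT arrays per line. The dashed line is the median probe value, 92.1. HL-60 is the brightest line for MPO and CEBPE, overlaps MOLM13 for PRG2, and is below both others for ELANE, AZU1, PRTN3, IRF8, CSF1R, CD74 and HLA-B.

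Several large falls belong to no such group. UBB, a polyubiquitin gene, had 187, 153 and 178 in HL-60, against 14291, 14676 and 13918 in SKM1 and 11034, 11146 and 11392 in MOLM13 (-6.20 ± 0.07 (SE; adjusted p = 9.17e-17)), and a second probe gave -4.01. CD70, the ligand of CD27, had 94.6, 96.7 and 83.6 in HL-60, against 5996, 6633 and 6388 in SKM1 and 6501, 5534 and 5378 in MOLM13 (-6.05 ± 0.08 (SE; adjusted p = 2.28e-16)). CLEC11A, a growth factor for blood and bone cells, averaged 87.6 ± 9.25 in HL-60, against 2009 ± 62.5 in SKM1 and 8512 ± 737 in MOLM13 (-5.56 ± 0.08 (SE; adjusted p = 4.56e-16)), and CES1, a carboxylesterase of liver and monocytes, 90.9 ± 4.51 in HL-60, against 2359 ± 179 in SKM1 and 4027 ± 255 in MOLM13 (-5.08 ± 0.07 (SE; adjusted p = 4.56e-16)). In each case HL-60 was at or close to background and both other lines were bright. A weaker CES1 probe gave -1.17. PDLIM1, an actin-binding LIM protein, differed by -4.30 ± 0.08 (SE; adjusted p = 3.26e-15).

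Metallothioneins bind zinc and copper, and of the 6 tested, 5 were called lower in HL-60, 4 of them below both lines, and 1, MT2A, was called higher. MT1E had 97.3, 123 and 113 in HL-60, against 1208, 1086 and 1050.3 in SKM1 and 4159.8, 4421 and 5051 in MOLM13 (-4.34 ± 0.09 (SE; adjusted p = 1.32e-14)), and MT1F averaged 89.8 ± 6.97 in HL-60, against 619 ± 23.2 in SKM1 and 2728 ± 341 in MOLM13 (-3.85 ± 0.08 (SE; adjusted p = 2.84e-14)). MT1G was bright in MOLM13 and near background in the other lines, with 102 in HL-60, against 93.1 in SKM1 and 6184 in MOLM13. MT2A, named after its values were seen, averaged 4328 ± 443 in HL-60, against 1088 ± 39.5 in SKM1 and 4283 ± 1393 in MOLM13 (1.02, adjusted p = 1.71e-05), and did not lie apart from MOLM13 (0.06, adjusted p = 0.801). Members of this family are alike and their probes may share signal. Of 29 tested metallothionein and NRF2 target genes, 4 were called higher and 15 lower. Of 34 tested lysosome genes, 9 (26.5%) were called higher and 19 (55.9%) lower, against 26.3% and 24.2% of all tested genes. Of those called lower, 14 were below both lines. CTSZ averaged 169 in HL-60, against 1666 in SKM1 and 813 in MOLM13 and CTSL 138 in HL-60, against 359 in SKM1 and 608 in MOLM13, both cathepsins. LAMP2, a lysosome membrane protein, differed by -2.08 on its brightest probe and by -0.14 on the next.

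CDKN1A, the p21 cell cycle inhibitor and a p53 target, had 119, 123 and 108 in HL-60, against 549.8, 659 and 595 in SKM1 and 6311, 5409 and 5706 in MOLM13. HL-60 was near background, SKM1 between and MOLM13 brightest. The difference was -2.36 from SKM1 and -5.64 from MOLM13, or 16-fold lower in HL-60 than their mean (adjusted p = 1.01e-14). Of 27 tested p53 targets, 6 were called higher and 14 lower, 8 below both lines, with a median of -0.22 (-0.33 under a stricter filter on dim genes). SESN1 averaged 165 in HL-60, against 374 in SKM1 and 625 in MOLM13 (-1.55 ± 0.07 (SE; adjusted p = 5.01e-11)) and the lysosomal fucosidase FUCA1 129 in HL-60, against 339 in SKM1 and 589 in MOLM13 (-1.78). SESN2, which is a target of ATF4 as well, went the other way at 1.47. The list's median was 0.02 against SKM1 and -0.30 against MOLM13.

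ATF4 drives genes of amino acid supply under stress, and most of those tested were higher in HL-60. Of 33 tested ATF4 target, serine and one-carbon genes, 21 were called higher and 3 lower, 17 were above both lines and none below, with a median of 0.57. ATF5, a related factor, had 2158, 2365 and 2745 in HL-60, against 132, 141 and 135 in SKM1 and 563, 502 and 556 in MOLM13 (3.15 ± 0.08 (SE; adjusted p = 1.67e-13)). SHMT2, the mitochondrial serine hydroxymethyltransferase, averaged 7881 ± 181 in HL-60, against 3046 ± 53.2 in SKM1 and 4010.0 ± 344 in MOLM13 (1.17 ± 0.07 (SE; adjusted p = 2.28e-09)), and PHGDH and PSAT1 of the serine pathway differed by 0.96 and 1.02. ASNS, asparagine synthetase, differed by 1.28 and STC2, a secreted glycoprotein, by 2.32. The stress factors DDIT3 and TRIB3 differed by 1.55 and 1.93.

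Replicate 1 of SKM1 and replicate 1 of MOLM13 were lower than their companions for several of these genes. DDIT4, named after its values were seen, had 4393, 8007 and 9484 in HL-60, against 838, 3071 and 3386 in SKM1 and 681, 3188 and 2976 in MOLM13. The median deviation of the list from its own gene means was 0.28, 0.40 and 0.36 in the HL-60 arrays, against -0.21, -0.06 and -0.09 in SKM1 and -0.50, -0.12 and -0.00 in MOLM13. Without replicate 1 of every line, a comparison added after these values were seen, 19 members were called higher and 4 lower, with a median of 0.51. The cause of the spread among arrays was not tested.

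MYC itself had 5367, 5187 and 4069 in HL-60, against 3095, 3033 and 2993 in SKM1 and 3405, 2947 and 3077 in MOLM13, a difference of 0.65 ± 0.09 (SE; adjusted p = 1.79e-05) in the shNT arrays. In the shBCAT1 arrays it was -0.19 (adjusted p = 0.0777), and the 2 differed by -0.84 (adjusted p = 1.03e-04), so the higher MYC value was not seen in the second set. Of 34 tested MYC network and target genes, 21 were called higher and 5 lower, 14 and 2 outside both lines, with a median of 0.44. POLR1B, a subunit of RNA polymerase I, averaged 365 ± 38.3 in HL-60, against 128 ± 6.44 in SKM1 and 125 ± 9.88 in MOLM13 (1.52 ± 0.08 (SE; adjusted p = 6.96e-10)), and CAD, which starts pyrimidine synthesis, 812 ± 68.2 in HL-60, against 329.7 ± 15.2 in SKM1 and 306 ± 24.7 in MOLM13 (1.35 ± 0.08 (SE; adjusted p = 1.37e-09)). PA2G4 and PPAN, of ribosome biogenesis, differed by 1.00 and 0.98. Cytosolic ribosomal protein genes did not share this, with 13 called higher and 5 lower of 49 and a median of -0.01.

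Genes of the cell cycle were read as 2 lists, replication with entry into S phase, and mitosis. Of 35 tested replication and G1/S genes, 22 (62.9%) were called higher and 4 (11.4%) lower, with a median of 0.32. The median was 0.18 against SKM1 and 0.47 against MOLM13, and lay between 0.24 and 0.38 under the alternatives. The list's median deviation from its own gene means was -0.42 in MOLM13 replicate 1, against -0.11 and -0.03 in the other MOLM13 arrays. Of 34 mitosis and G2/M genes, 11 (32.4%) were called higher and 9 (26.5%) lower, with a median of 0.02. This median joined opposite differences, -0.30 against SKM1 and 0.33 against MOLM13, so HL-60 lay between the lines. The list's median deviations were 0.08, 0.08 and -0.02 in HL-60, against 0.33, 0.33 and 0.41 in SKM1 and -0.53, -0.29 and -0.27 in MOLM13. The number of mitosis genes called higher was 7 when HL-60 replicate 1 or 2 was left out. Over all tested genes, 26.3% were called higher and 24.2% lower. E2F2, a cell cycle factor, averaged 1285 ± 25.5 in HL-60, against 229.9 ± 6.4 in SKM1 and 513 ± 39.1 in MOLM13 (1.91 ± 0.07 (SE; adjusted p = 7.33e-12)), the helicase subunit MCM5 3243 in HL-60, against 1741 in SKM1 and 1553 in MOLM13, and the repair enzyme UNG 2362 in HL-60, against 1181 in SKM1 and 933 in MOLM13. UBE2C, the ubiquitin-conjugating partner of the anaphase-promoting complex, read 3544 in HL-60, against 96.2 in SKM1 and 2648 in MOLM13, with SKM1 near background and a second, dim probe at 0.19. HMMR, a spindle-associated protein, was lower at -0.87, and was brightest in SKM1.

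The D cyclins, which partner CDK4 and CDK6, differed in opposite directions. In their list of 15 genes, 5 (33.3%) were called higher and 7 (46.7%) lower, against 26.3% and 24.2% of all tested genes. CCND2 had 4939, 4433 and 4823 in HL-60, against 109.8, 101 and 101 in SKM1 and 1911, 1721 and 1643 in MOLM13 (3.47 ± 0.07 (SE; adjusted p = 1.72e-14)), and CCND1 558, 482 and 509 in HL-60, against 78.3, 75.5 and 77.1 in SKM1 and 320.2, 328 and 333 in MOLM13 (1.70 ± 0.07 (SE; adjusted p = 2.24e-11)). For both HL-60 was highest and SKM1 was near background. CCND3 averaged 1885 ± 183 in HL-60, against 6713 ± 339 in SKM1 and 5959 ± 341 in MOLM13 (-1.75 ± 0.08 (SE; adjusted p = 6.94e-11)), lower than both. CDK4 averaged 3073 ± 112 in HL-60, against 1248 ± 34.8 in SKM1 and 2206 ± 119.6 in MOLM13 (0.89 ± 0.07 (SE; adjusted p = 2.77e-08)). Of 17 tested BCL2 family genes, 6 (35.3%) were called higher and 3 (17.6%) lower, against 26.3% and 24.2% of all tested genes. BCL2L2 at 0.84 and BAD at 0.75 were among the higher ones.

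**Figure D3:**
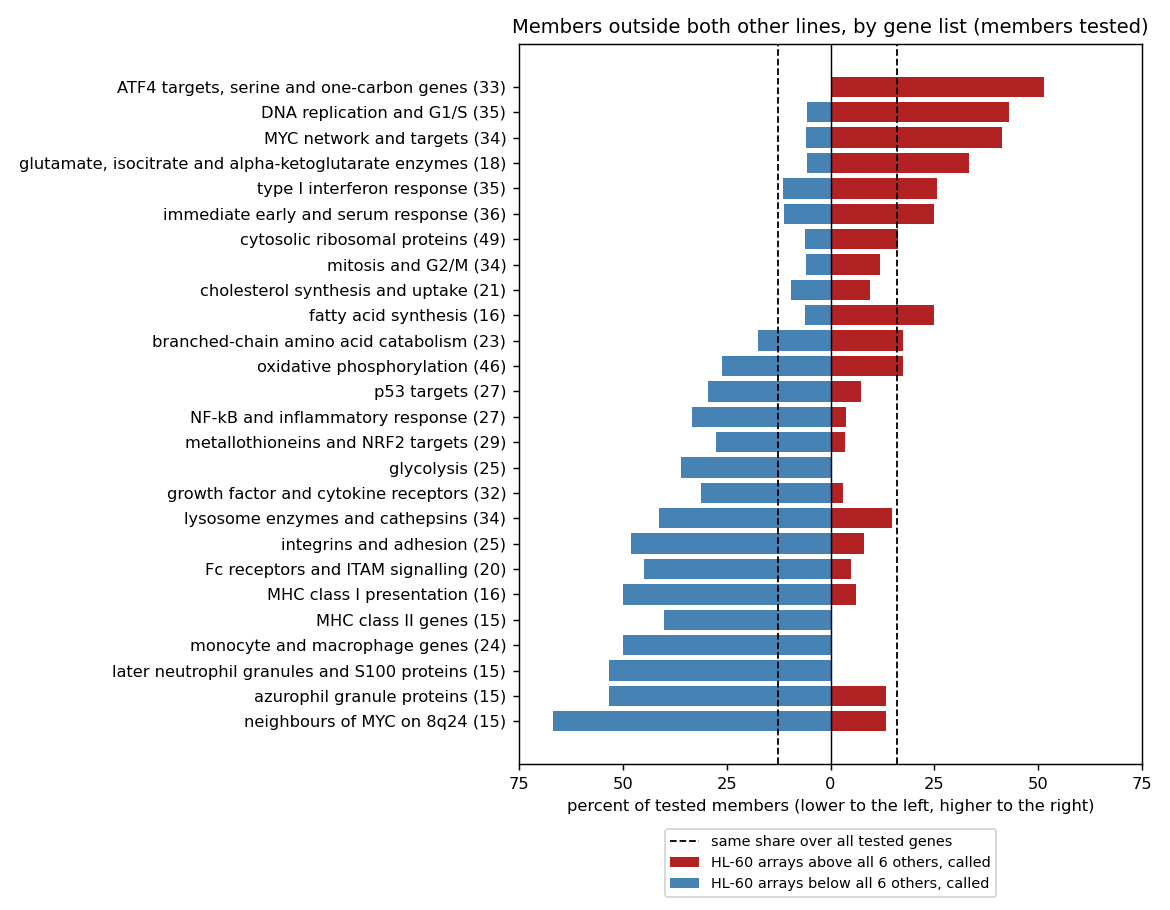
Percent of the tested members of 26 gene lists whose HL-60 arrays were called and lay above all 6 others (right) or below all 6 others (left), with the number tested beside each name. Dashed lines are the same shares over all 14412 tested genes, 16.1% above and 12.6% below. ATF4 targets, replication and MYC genes extend farthest to the right, and the neighbours of MYC, granule, monocyte and class I genes farthest to the left.

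BCAT1, which transfers the amino group of branched-chain amino acids to alpha-ketoglutarate, was a little higher in HL-60, with a difference of 0.36 ± 0.06 (SE; adjusted p = 2.41e-04) from 1473, 1476 and 1456 in HL-60 against means of 1221 in SKM1 and 1071 in MOLM13. BCAT2, the mitochondrial form, had 1082, 1132 and 1019 in HL-60, against 773, 759.6 and 725 in SKM1 and 674, 563 and 591 in MOLM13 (0.67 ± 0.07 (SE; adjusted p = 1.97e-06)). PCCA, a subunit of propionyl-CoA carboxylase at the end of isoleucine and valine breakdown, had 91.4, 103 and 108 in HL-60, against 556, 628 and 593 in SKM1 and 488, 475 and 477 in MOLM13 (-2.40 ± 0.07 (SE; adjusted p = 1.08e-12)). HL-60 lay above both lines for BCAT1 and BCAT2 and at background for PCCA. Of 23 tested branched-chain amino acid genes, 6 were called higher and 11 lower. Of 18 genes for glutamate, isocitrate and alpha-ketoglutarate, 10 were higher and 1, IDH1, was lower. IDH1 averaged 842 in HL-60, against 1197 in SKM1 and 2076 in MOLM13 (-0.91 ± 0.09 (SE; adjusted p = 9.68e-07)), GOT2, which makes aspartate from oxaloacetate, 4202 in HL-60, against 3191 in SKM1 and 1525 in MOLM13 (0.93 ± 0.07 (SE; adjusted p = 4.76e-08)), and IDH2 was not called (adjusted p = 0.174).

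Of 25 tested glycolysis genes, 2 were called higher and 17 lower, with a median of -0.37. SLC2A5, a fructose transporter, averaged 326 ± 12.7 in HL-60, against 2098 ± 58.7 in SKM1 and 2845 ± 348 in MOLM13 (-2.90 ± 0.08 (SE; adjusted p = 3.32e-13)), HK1, a hexokinase, 406 ± 51.8 in HL-60, against 3291 ± 178 in SKM1 and 993 ± 48.8 in MOLM13 (-2.16 ± 0.08 (SE; adjusted p = 1.27e-11)), and PGK1 2485 in HL-60, against 6867 in SKM1 and 3687 in MOLM13 (-1.02). Of 20 HIF1 targets outside glycolysis, 4 were called higher and 9 lower. Of 46 oxidative phosphorylation genes, 13 were called higher and 22 lower. Its 4 members with the smallest p-values, UQCRB, CYC1, NDUFB9 and COX6C, at -2.03, -1.51, -1.79 and -0.96, all lie on chromosome 8. The list's median was -0.38 against SKM1 and 0.08 against MOLM13.

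Chromosome 8 stood apart from the other chromosomes, a comparison chosen after gene values were seen. Its 512 tested genes had a median difference of -0.47, and 241 of them (47.1%) were below both other lines, with 9 above. Over the other chromosomes, medians lay between -0.07 and 0.14 and the share below both lines between 5.21% and 19.6%. Relative to each gene's mean over the 9 arrays, chromosome 8 genes had medians of -0.29, -0.31 and -0.31 in the HL-60 arrays, against -0.01, -0.00 and -0.01 in SKM1 and 0.26, 0.27 and 0.31 in MOLM13. The HL-60 arrays were lowest and the MOLM13 arrays highest, with no overlap. The median was -0.24 against SKM1 and -0.62 against MOLM13, 2 comparisons that share the HL-60 arrays, and -0.55 in the shBCAT1 arrays. Gene copy number was not measured.

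Within it, LAPTM4B, a lysosome membrane protein, had 76, 85.1 and 88.3 in HL-60, against 3623, 3800.4 and 3751 in SKM1 and 3922, 3611 and 3465 in MOLM13 (-5.48 ± 0.07 (SE; adjusted p = 2.28e-16)), HL-60 at background. Of 15 tested neighbours of MYC on 8q24, 2 were called higher and 11 lower, with a median of -1.27, and 10 were below both lines. WASHC5, an endosome complex subunit, averaged 322 ± 13.9 in HL-60, against 1139.5 ± 49.2 in SKM1 and 1629 ± 196 in MOLM13 (-2.08 ± 0.08 (SE; adjusted p = 1.62e-11)), SQLE, an enzyme of sterol synthesis, 696 ± 77.5 in HL-60, against 2438 ± 519.5 in SKM1 and 2370.1 ± 678 in MOLM13 (-1.76 ± 0.17 (SE; adjusted p = 3.53e-07)), and TYW2, which modifies a transfer RNA, 99 in HL-60, against 577 in SKM1 and 573 in MOLM13 (-2.55). TRIB1, a pseudokinase that promotes degradation of C/EBP alpha, ran against its neighbours, with 6623, 6095 and 5955 in HL-60, against 200.3, 196 and 184 in SKM1 and 1053, 1056 and 1084 in MOLM13 (3.78 ± 0.07 (SE; adjusted p = 3.26e-15)). PVT1, the long noncoding RNA next to MYC, averaged 107 in HL-60, against 351 in SKM1 and 142 in MOLM13 (-1.04). The 2 members of the list that were called higher were TRIB1 and MYC.

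**Figure D4:**
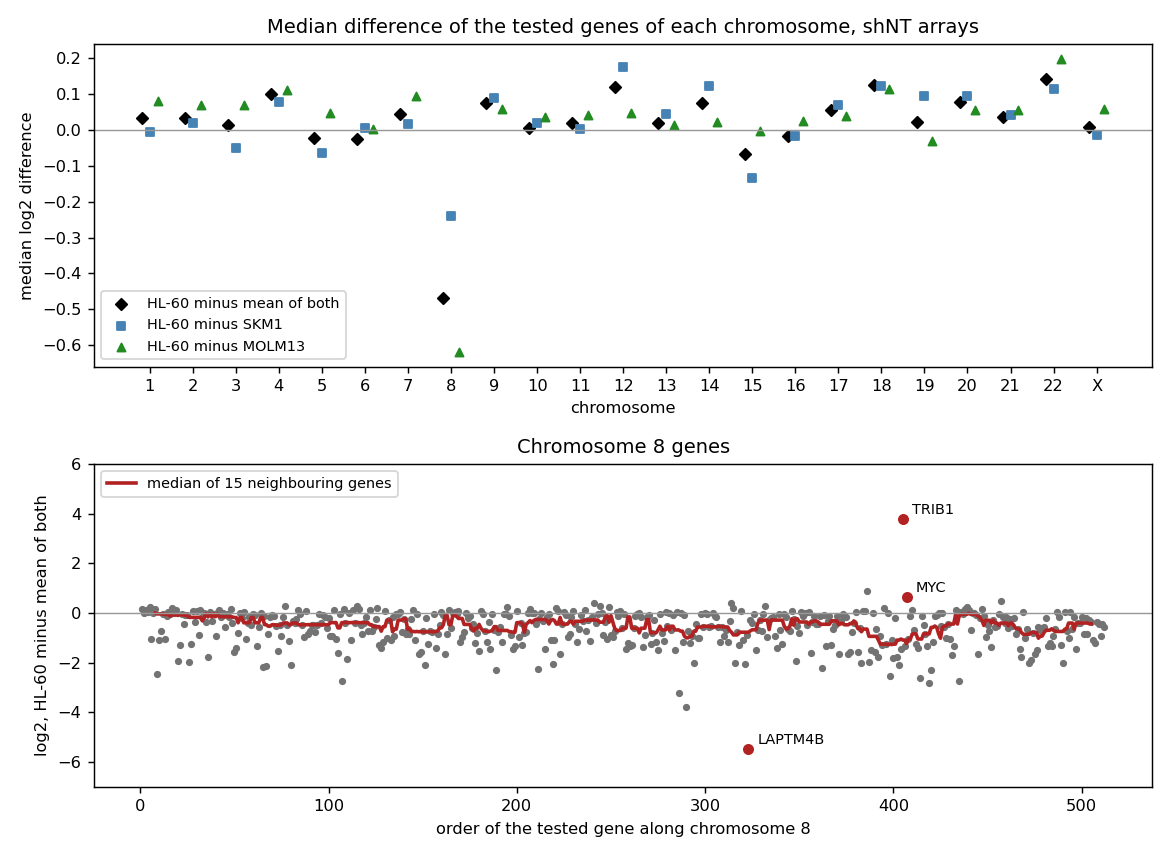
Top, median log2 difference of the tested genes on each chromosome in the shNT arrays, for HL-60 minus the mean of both lines and minus each line. Bottom, the difference of each of 512 tested chromosome 8 genes in their order along it, with the median of 15 neighbouring genes as a line. Chromosome 8 has a median of -0.47 while the others lie between -0.07 and 0.14, and TRIB1 (3.78) and MYC (0.65) stand above their neighbours.

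Among lists read for serum and growth signals, the immediate early, cholesterol and fatty acid genes moved in no single direction. NF-kB and inflammatory genes were mostly lower. Serum cannot be told apart from line. Of 36 immediate early and serum response genes, 13 were called higher and 12 lower, with a median of 0.11. HL-60 replicate 1 stood apart for this list. Its median deviations from its own gene means were 0.28, -0.02 and -0.05 in HL-60, against -0.19, -0.20 and -0.22 in SKM1 and 0.01, 0.05 and 0.03 in MOLM13. ZFP36, which destabilises cytokine mRNA, differed by -1.95 and ETV4, an ERK target, by 1.35. Of 21 cholesterol genes, 4 were called higher and 3 lower, with a median of 0.08. HMGCS1, which makes HMG-CoA, had 6886, 6477 and 6025 in HL-60, against 1334, 2451 and 2658 in SKM1 and 1690.5, 4459 and 5311 in MOLM13 (1.28 ± 0.28 (SE; adjusted p = 0.0014)), and replicate 1 of both other lines was low. Without MOLM13 replicate 1, 8 cholesterol genes were called lower. Without replicate 1 of every line the cholesterol count was 8 higher and 7 lower, with a median of -0.12. Of 16 fatty acid synthesis genes, 6 were called higher and 3 lower. Of 27 NF-kB and inflammatory genes, 15 (55.6%) were called lower and 5 (18.5%) higher, against 24.2% and 26.3% of all tested genes. Of these, 9 were below both lines and 1 was above. The lower genes were led by TNF with 159, 109.9 and 109 in HL-60, against 396, 439 and 467 in SKM1 and 1832, 2138 and 2377 in MOLM13 (-2.95 ± 0.12 (SE; adjusted p = 2.55e-11)).

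Of 22 tested genes of leukaemia stem and progenitor programmes, 6 were called higher and 6 lower, close to the shares of all tested genes (26.3% and 24.2%). IGF2BP3 averaged 742 in HL-60, against 85.4 in SKM1 and 231 in MOLM13 and IGF2BP2 265 in HL-60, against 1956 in SKM1 and 1573 in MOLM13, so these 2 RNA-binding paralogues differed in opposite directions (2.40 and -2.73). LYL1, a helix-loop-helix factor, was higher at 1.63. LIN28B, which blocks let-7 maturation, was bright in SKM1 and near background in the other lines, with 79.9 in HL-60, against 1185 in SKM1 and 85.8 in MOLM13. In a list around MEIS1, most of whose other members were not analysed here, none of 7 tested genes was called higher. Of the 7, 6 were called lower and 3 were below both lines, with a median of -0.99. The median of this list was -0.20 against SKM1 and -1.47 against MOLM13, so it came mainly from MOLM13. FLT3, a receptor kinase, averaged 87.8 ± 5.91 in HL-60, against 183 ± 2.76 in SKM1 and 1551 ± 114 in MOLM13, the homeobox factor PBX3 differed by -2.12 and MEF2C by -0.99. MEIS1 was brightest in MOLM13, with 108 in HL-60, against 109 in SKM1 and 468 in MOLM13, and HL-60 did not lie apart from SKM1 (-0.03). CD34 was near background in all lines and was not called (adjusted p = 0.632). CBX2 and BMI1, Polycomb subunits, differed by 2.54 and -1.90, and EZH2, the Polycomb methyltransferase, by 1.02, among 26 tested DNA methylation and Polycomb genes with 10 higher and 7 lower. Of 6 tested HOXB genes 1 was called higher and none lower. Of 10 genes on 9p21, 3 were higher and 1 lower, and of 25 on 17p, 8 and 9.

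Markers of other cell types were counted beside these results. Of 17 tested erythroid and megakaryocytic genes, 4 were called higher and 1 lower, and the summed intensity of the 25 genes analysed was 2739 to 2882 in HL-60, against 2344 to 2463 in SKM1 and 2934 to 3220 in MOLM13. Of 15 lymphoid genes, 2 were higher and 5 lower, with sums over 29 genes of 5177 to 5961 in HL-60, against 3014 to 3138 in SKM1 and 6529 to 6896 in MOLM13. IGLL1, the surrogate light chain, was the lymphoid gene with the largest rise, averaging 2195 ± 389 in HL-60, against 87.1 ± 2.99 in SKM1 and 714 ± 60.6 in MOLM13. Of 13 eosinophil, basophil and mast cell genes, 4 were higher and 3 lower, with sums over 16 genes of 26612 to 29973 in HL-60, against 4312 to 4589 in SKM1 and 26995 to 27878 in MOLM13. TPSAB1, a mast cell tryptase, was brightest in MOLM13, with 119.6 in HL-60, against 86.9 in SKM1 and 1059 in MOLM13. Of 9 epithelial, fibroblast and packaging cell genes, 1 was higher and 3 lower, and EPCAM, an epithelial adhesion protein, was bright in SKM1 and near background in the other lines, with 89.3 in HL-60, against 1473 in SKM1 and 91.4 in MOLM13. That list's sum over 22 genes was 1917 to 1969 in HL-60, against 3240 to 3374 in SKM1 and 1936 to 2001 in MOLM13. No marker is listed at 0, the smallest intensity in the table being 60.4. The part of other cell types in the differences was not tested.

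The same line difference was read in the 9 shBCAT1 arrays, which share no array with the first set. There 7523 of 14434 tested genes (52.1%) were called, 28.1% higher and 24% lower. All 372 genes that were at least 2-fold higher and above both lines in the shNT arrays were called higher again, and 353 were above both lines. Of the 628 lower genes, 623 were called lower again, 566 were below both lines and 3 had the opposite sign. The median difference of the higher set was 1.23 in the shBCAT1 arrays, against 1.27 in the shNT arrays used to choose it, and that of the lower set was -1.47, against -1.52. Across 13444 genes tested in both, Pearson's r was 0.921, a description over genes that are not independent. ELANE and CLC had differences of -6.42 and 5.59 there. Of the named genes, 38 had a next-brightest probe above 1.5 times the median probe value, and in the shNT arrays it had the sign of the brightest probe for all 38, with sizes more than 1.5-fold apart for 19.

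**Figure D5:**
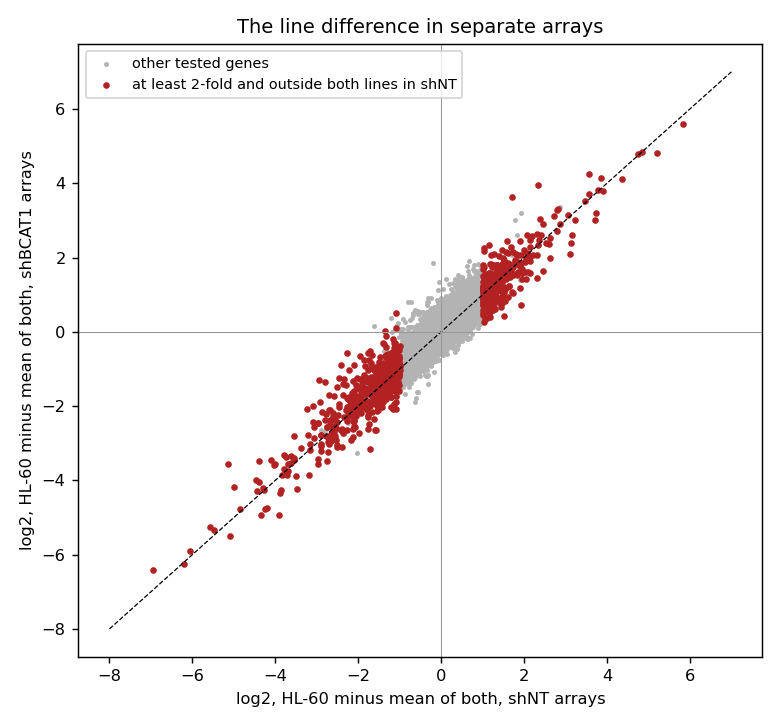
Log2 difference of HL-60 from the mean of SKM1 and MOLM13 in the shBCAT1 arrays (vertical) against the same difference in the shNT arrays (horizontal), with 1 point per gene and 3 arrays per line in each set. Red points are the 372 higher and 628 lower genes chosen in the shNT arrays, and the dashed line marks equal differences. The red points lie along the line in both corners, and 3 of them have the opposite sign in the shBCAT1 arrays.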

How the data were processed

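The authors deposited 1 table of probe intensities for 18 arrays, on a linear scale and already brought to a common level between arrays. The normalization method and scanner software are not given in the sources used here. Per the labels' protocols, RNA was amplified with an Illumina kit from 200 ng and labelled with biotin and Cy3-streptavidin. Of 48107 probes, 7 with missing values were left out, 30113 had 1 gene symbol in the platform annotation, 8 had several, and 17986 were unnamed here. The probe with the highest mean of the 18 arrays stood for each of 20046 genes.

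Intensities were taken to log2 without further normalization or pseudocount. A gene was tested when its brightest compared group mean passed 92.1, the table's median value, and 5630 dim genes were left out. The 9 shNT arrays were fitted in limma 3.58.1 (R 4.3.3) with a mean per line and empirical Bayes moderation (residual df 6, prior df 8.2), and p-values were adjusted by Benjamini-Hochberg over the 14412 tested genes at 0.05. The 9 shBCAT1 arrays were fitted likewise, and a fit of all 18 tested whether the line difference differed between hairpins. The number of arrays limits the precision. The pipeline was tested on simulated data.

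Named genes were the 15 largest differences in each direction outside both lines, up to 4 members with the smallest p per list, members whose role defines a list, and BCAT1; others are said to be named after their values were seen. The comparison, its 41 gene lists and the tests were chosen with earlier results of these data known. Several further genes, and all Y-linked and X-inactivation genes, are not reported here. Alternatives covered probe choice, filters, normalization, background correction, weights, a replicate block and leaving out arrays. Promoters came from RefSeq (GRCh38.p14). Plots used matplotlib 3.10.9 (Python 3.11.15).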

Additional observations from a re-analysis of the deposited data

Results flagged for a closer look

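The difference of HL-60 from the other lines was tested for a change between hairpins, in 1 limma fit of all 18 arrays, and 57 of the 149 named genes passed, against 1694 of 15402 genes (11%) over the whole table. Each value is the difference in the shBCAT1 arrays minus that in the shNT arrays, on the log2 scale, and each gene passed at an adjusted p under 0.05. No explanation of them was tested.

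Cell cycle and growth genes were among those that differed most. CCND1 had 1.94 (adjusted p = 1.14e-11), so HL-60 was higher by 3.64 in the shBCAT1 arrays, against 1.70 in the shNT arrays. Of 34 mitosis and G2/M genes tested, 25 passed with a positive value and none with a negative one, with a median of 0.57. Of 35 replication and G1/S genes, 11 passed with a positive value and none with a negative one, with a median of 0.30. Over all genes, 11% passed in either direction. CCND3 had 0.99, E2F2 0.53, MCM5 0.56, UBE2C 0.50 and HMMR 0.79. MYC had -0.84 and MYB 0.48. Of the MYC targets, PPAN had -0.37 and POLR1B -0.36, and RPL7 had -0.46.

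Of 15 azurophil granule genes tested, 9 passed with a positive value and 1 with a negative one, and of 16 genes for later granules and S100 proteins 1 and 6. MPO had 1.60 (adjusted p = 8.74e-09), with 3.95 in the shBCAT1 arrays against 2.34 in the shNT arrays. LYZ had 1.59, PRG2 1.23, BPI 1.03, AZU1 0.65, ELANE 0.53 and CFD 0.51. S100A8 and S100A9 had -1.02 and -0.53. PRTN3 (-0.36, adjusted p = 0.0575), CTSG (-0.02) and MMP9 (-0.13) did not pass. TPSAB1 had 0.84, IL5RA 0.59 and EPX 0.38. In the shNT arrays IL5RA differed by only 0.05, and EPX differed by -0.10 and was not called (adjusted p = 0.362). Both genes were at or near background in the shNT arrays of all lines.

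Of 25 monocyte and macrophage genes tested, 6 passed with a positive value and 4 with a negative one. The counts were 10 and 1 of 32 growth factor and cytokine receptors, 8 and none of 25 integrin and adhesion genes, and 9 and 1 of 21 Fc receptor and ITAM signalling genes. TNF had 1.66, FCER1G 1.20, LAT2 1.03, NCF1C 0.92, TYROBP 0.88, ITGB2 0.85 and IRF8 0.83. TNFRSF1B had 0.74, CSF1R 0.73, ITGAL 0.66, CTSZ 0.59, CSF3R 0.45, CD68 0.44, ZFP36 0.43 and FLT3 0.42. LYN (0.46), CCR2 (0.26), PECAM1 (-0.30) and ITGAM (-0.26) did not pass. SPI1 had 0.71, at 0.28 in the shBCAT1 arrays against -0.43 in the shNT arrays. Its second probe was negative in both, at -0.62 in the shBCAT1 arrays against -1.25 in the shNT arrays. CD300LF and CTSL were lower still, with -0.48 and -0.47.

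Of the genes that were higher in HL-60, HERC5 had 0.77 and HCST 0.68, while STC2 had -0.86, IGLL1 -0.74, DNAJC12 -0.71, PITX1 -0.54, ATF5 -0.53 and BEX1 -0.39. BCAT1, the hairpin's target, had -0.32, and BCAT2 -0.42. Of the remaining genes, MT1E had -0.60, MT1F -0.41, CES1 -0.42, SESN1 -0.43, LIN28B 0.48 and IDH1 0.44.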

How the results depend on the processing

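All 14 gene counts stayed within 1.5 times their reported value under each of 19 alternatives. The number called in the shNT arrays lay between 6533 and 7462, genes above both lines between 2062 and 2874, and genes below them between 1654 and 2273. With the replicate number as a block, 7332 genes were called. Same-numbered arrays of different lines correlated at -0.085 to 0.238 in their deviations (9 pairs), and differently numbered arrays at -0.228 to 0.128 (18 pairs). Between SKM1 and MOLM13 the same-numbered values were 0.238, 0.049 and 0.184. The labels do not say that the numbers pair the samples, and they were not taken to do so in the main fit. Without replicate 1 of every line, which was chosen after seeing the data, 7232 genes were called. No named gene that was called lost its call or changed sign. CD14 was called at 0.25 without HL-60 replicate 1 and at 0.26 without replicate 1 of every line, and IDH2 at -0.20 without MOLM13 replicate 1 and at -0.21 without replicate 1 of every line. List medians near 0 changed sign in some settings, among them cholesterol genes (-0.12 to 0.12), type I interferon genes (-0.06 to 0.21), immediate early genes (-0.03 to 0.18), mitosis genes (-0.03 to 0.09) and epithelial genes (-2.04 to 0.06). The azurophil median lay between -1.28 and -0.58, that of later granules and S100 proteins between -2.08 and -0.27, the monocyte median between -1.72 and -0.83, and the ATF4 median between 0.39 and 0.66. Of the recomputed list counts, 67 moved by over 1.5 times and 1491 did not. Of the list medians, 125 moved by more than 1 SD of the HL-60 arrays and 653 did not. Signal near background limits folds, and probes without detection calls cannot show absence. The cause of these movements was not tested.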

Other observations

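Outside chromosome 8, the lowest run of 15 neighbouring tested genes lay on chromosome 10, from CACNB2 to THNSL1, with a median difference of -0.98 (-0.71 against SKM1, -1.01 against MOLM13 and -1.08 in the shBCAT1 arrays). It was found by scanning 14039 overlapping runs, of which the central 95% had medians between -0.40 and 0.36, so it is a description of the data it was chosen from. None of its genes was above both lines and 8 were below. BMI1, a Polycomb subunit, averaged 337 ± 47.9 in HL-60, against 549.6 ± 17.2 in SKM1 and 2841 ± 186 in MOLM13, and COMMD3, its neighbour, 1063 in HL-60, against 2361 in SKM1 and 6235 in MOLM13. MLLT10, a histone-binding cofactor known from leukaemia fusions, averaged 84.8 ± 7 in HL-60, against 222 ± 1.79 in SKM1 and 389 ± 33.1 in MOLM13, and MSRB2, a mitochondrial methionine sulfoxide reductase, 303 ± 21.1 in HL-60, against 1141 ± 24.3 in SKM1 and 848 ± 33.2 in MOLM13. HL-60 was lowest for all 4, and MLLT10 was at background there.

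The highest run lay on chromosome 22, from TTC38 to SELENOO, with a median of 0.67 and 10 genes above both lines. A run on chromosome 7 from CUL1 to ZNF746, which holds EZH2 and a group of zinc finger genes, had a median of 0.57 and 11 genes above both lines. EZH2 averaged 486 in HL-60, against 208 in SKM1 and 277 in MOLM13.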
